A study of Mus musculus with 13 samples.

Results

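The genes described here are 10 markers of enteroendocrine cells, the hormone-secreting cells scattered through the intestinal epithelium: Cck, Gip, Sct, Gcg, Ghrl, Sst, Nts, Chga, Chgb and Neurod1. They were taken by name from 12393 genes measured by an array probe set with exactly 1 gene symbol. A gene with several such probe sets was represented by the one with the highest mean over the 13 arrays. Of the 10 genes, 9 had 1 probe set and Neurod1 had a second one.

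RNA came from the duodenum, where the small intestine begins, of wild-type mice and of mice labelled K-Ras mutant or ViRas, all of mixed strain background. K-Ras is a small GTPase of growth factor signalling, and the title of the series speaks of its oncogenic activation. The labels give neither the allele nor the promoter that drives it. From 5 weeks of age and for 22 weeks the animals ate 1 of 3 diets: normal, high-fat, or high-fat supplemented with butyrate, which gut bacteria produce from fibre. The normal diet has 2 wild-type and 3 mutant arrays, the high-fat diet 2 of either genotype, and butyrate 1 wild-type and 3 mutant arrays. No group was without the diet period, and the wild-type mice on butyrate are represented by a single array, which the fits assume to vary like the others.

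Enteroendocrine cells are rare, and each releases peptides or amines from dense-core granules when nutrients reach the gut lumen. In the duodenum the best known are the I cells that secrete cholecystokinin, the K cells that secrete the incretin GIP, the S cells that secrete secretin and the D cells that secrete somatostatin. They arise from crypt progenitors through a cascade of transcription factors in which Neurod1 acts late. All members other than Neurod1 encode a secreted prohormone or a granin of the granule core. In bulk tissue, fewer cells of a type and less RNA per cell cannot be told apart.

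The promoters of 6 members are shown because Neurod1, itself a member, binds E-boxes (CANNTG) and because cyclic AMP acts on several hormone genes through the CRE half-site TGACGT. Each line gives the last 150 bases before the transcription start, 5′ to 3′ on the gene's strand, from RefSeq on GRCm38.p6. Capitals mark E-boxes, TGACGT on either strand and the TATA box TATAAA on the gene's strand.
Gip, chr11:96024395-96024544, plus strand: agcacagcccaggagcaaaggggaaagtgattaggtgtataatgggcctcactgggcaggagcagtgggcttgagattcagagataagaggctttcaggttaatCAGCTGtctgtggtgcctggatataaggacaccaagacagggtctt
Cck, chr9:121495695-121495844, minus strand: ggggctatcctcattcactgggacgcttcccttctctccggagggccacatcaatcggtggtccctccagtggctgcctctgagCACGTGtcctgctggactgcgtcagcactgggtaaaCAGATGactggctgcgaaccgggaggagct
Sct, chr7:141279134-141279283, minus strand: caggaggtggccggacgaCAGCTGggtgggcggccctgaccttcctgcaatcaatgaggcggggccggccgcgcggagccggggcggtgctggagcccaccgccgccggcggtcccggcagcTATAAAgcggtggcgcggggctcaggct
Gcg, chr2:62483654-62483803, minus strand: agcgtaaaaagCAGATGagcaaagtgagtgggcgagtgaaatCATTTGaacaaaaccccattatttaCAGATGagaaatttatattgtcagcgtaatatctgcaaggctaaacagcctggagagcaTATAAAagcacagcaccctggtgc
Sst, chr16:23890845-23890994, minus strand: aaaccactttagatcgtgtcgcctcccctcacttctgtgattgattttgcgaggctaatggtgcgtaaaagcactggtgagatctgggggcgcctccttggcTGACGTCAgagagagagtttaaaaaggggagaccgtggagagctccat
Chga, chr12:102554791-102554940, plus strand: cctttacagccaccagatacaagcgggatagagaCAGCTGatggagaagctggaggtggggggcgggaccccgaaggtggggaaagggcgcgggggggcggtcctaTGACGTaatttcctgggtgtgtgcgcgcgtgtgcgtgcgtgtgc

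Within 250 bases before the start, at least 1 E-box was found in 10 of 10 members, against 66.2% of 32851 RefSeq mouse promoters of the same length. The E-box variants CAGATG and CAGCTG were found in 3 and 5 members, against 14.4% and 13.0% of all promoters. The half-site TGACGT was found in 3 members, Sst, Chga and Chgb, against 6.47% of promoters. It lay 48 bases before the start in Sst, 44 in Chga and 72 in Chgb, and in Sst and Chgb a copy on each strand overlapped. The TATA box was found in 2 members, Sct at 28 and Gcg at 24 bases before the start, against 7.59% of promoters. Ghrl has 4 promoter entries, and its motifs were counted over all of them, whereas the share of all promoters counts each entry by itself. The CAGCTG of Ghrl lay in entry 4 only. The count for Ghrl is thus not on the same footing as the background. A match only describes the letters in this window.

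Levels are the authors' RMA values on a log2 scale, so that a difference of 1 is a 2-fold difference. Array medians ran from 6.04 to 6.14. The epithelial marker Vil1 (villin) stood at 11.83 to 12.32 on every array, and the duodenal factor Pdx1 at 6.65 to 8.24. Other duodenal markers varied more, such as Slc11a2, which ran from 6.69 to 12.03. The mean of 6 duodenal markers, Pdx1 among them, was 9.17 to 10.67 on the arrays of high-fat diet without butyrate. It was 9.6 on mutant butyrate array 2 and 8.15 to 8.46 on the remaining arrays. The cause of this difference was not tested. Of 4 ileal genes, Fabp6 was at 2.93 to 4.01, Slc10a2 at 2.01 to 2.28 and Fgf15 at 4.02 to 4.73, whereas Slc51a was high, at 9.45 to 10.41 on every array. Tissue other than duodenum was also present: the mean of 18 acinar pancreas genes ran from 5.47 to 12.53 between arrays, and the stomach gene Gkn1 was at 8.80 to 12.23 on 6 arrays and at 4.19 to 5.02 on the others. Array identifiers run in a separate number range for each diet, so diet and array series cannot be told apart, whereas genotypes are compared within a series.

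Gip encodes glucose-dependent insulinotropic polypeptide, the incretin of K cells, and varied least of the 10 genes. On normal diet Gip stood at 11.40 and 10.73 on the wild-type arrays and at 11.05, 11.20 and 11.01 on the mutant arrays. On high-fat diet Gip was 10.99 and 11.24 in wild type and 11.03 and 10.79 in mutants. With butyrate it was 11.15 on the wild-type array and 11.42, 11.09 and 11.09 on the mutant arrays. The whole range was 0.69, or 1.62-fold, and the genotypes overlapped wherever both had more than 1 array.

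Cck encodes cholecystokinin, which empties the gallbladder and stimulates pancreatic enzyme secretion. On normal diet Cck was 7.95 and 7.92 in wild type and 7.95, 8.08 and 7.76 in mutants. On high-fat diet Cck was 7.78 and 8.06 in wild type, but 8.14 and 7.01 on the mutant arrays. With butyrate Cck was 8.03 in wild type and 7.86, 8.22 and 7.95 in mutants. Mutant high-fat array 2 stood 0.75 below the next lowest array, and without it the range was 0.47.

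Sct encodes secretin, which stimulates bicarbonate secretion by the pancreas. On normal diet Sct was 9.35 and 8.39 in wild type, a spread that enclosed the mutant values of 8.94, 9.07 and 9.07. On high-fat diet Sct was 8.79 and 9.16 in wild type and 9.25 and 8.05 in mutants, so the mutant arrays lay on either side of the wild-type ones. With butyrate Sct was 9.09 in wild type and 8.92, 9.44 and 8.92 in mutants. No diet separated the genotypes for Sct.

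**Figure D1:**
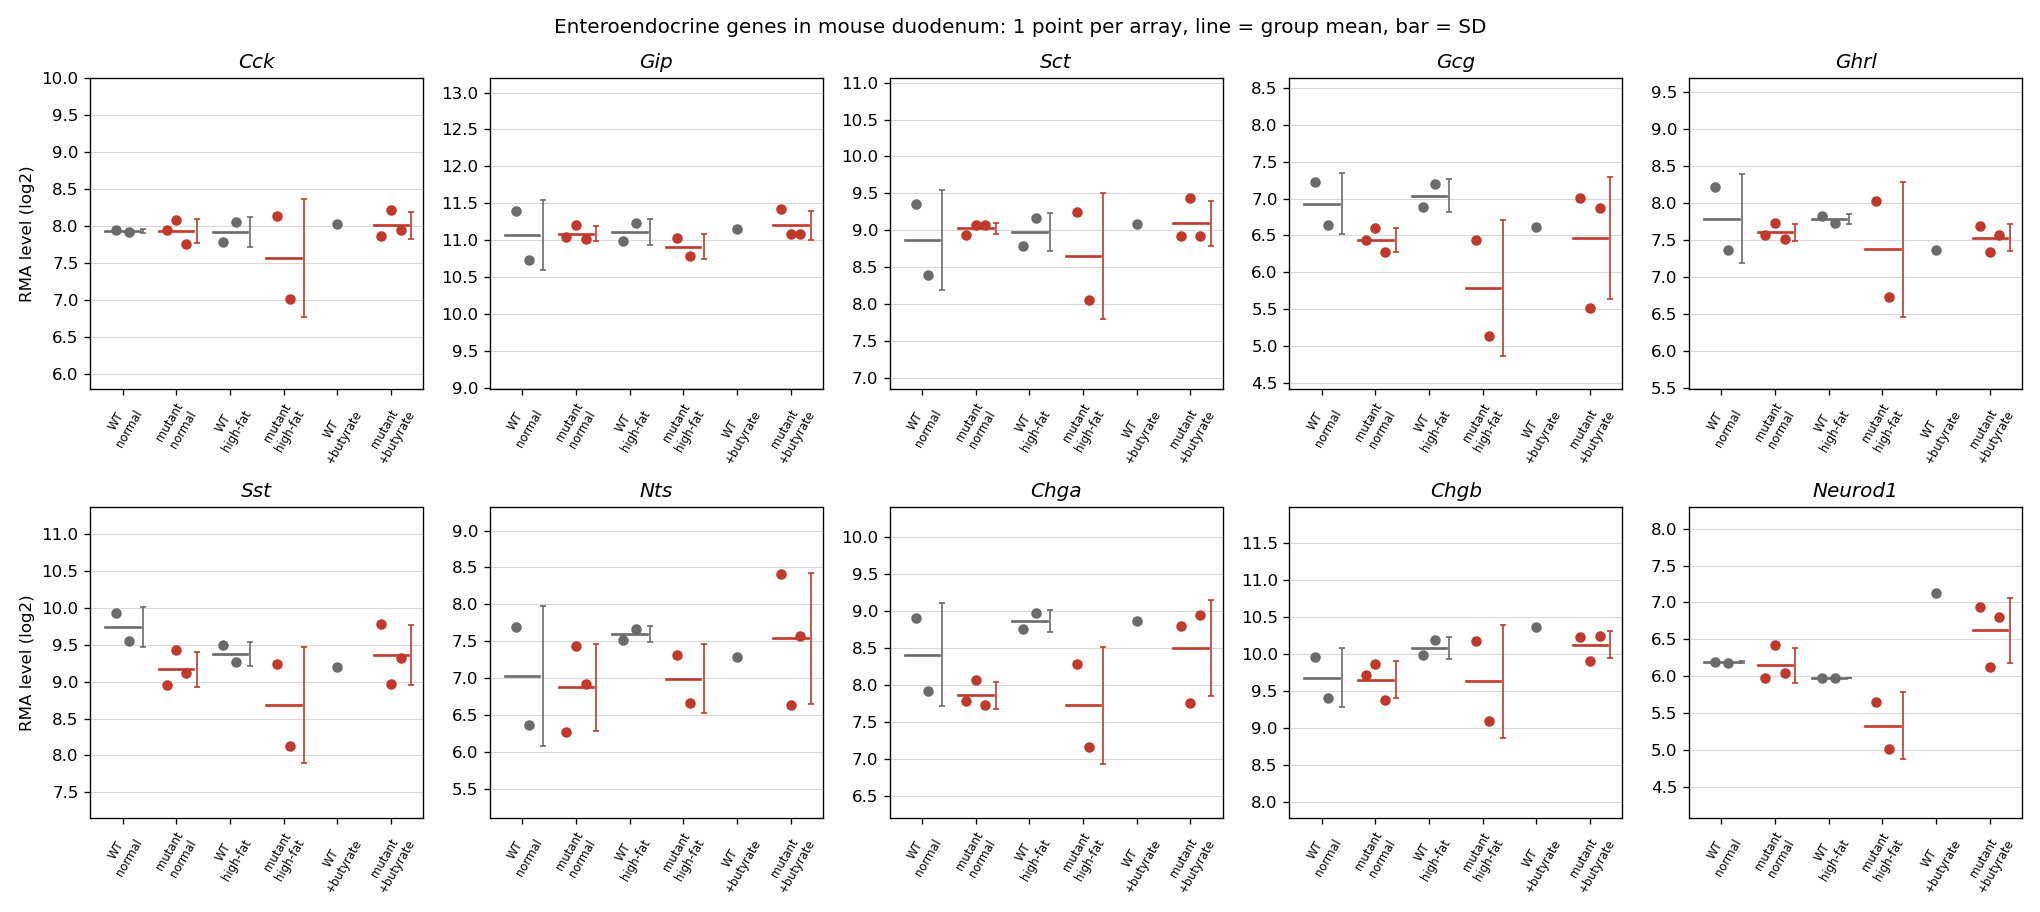
RMA level (log2) of each of the 10 genes in the 6 groups, with wild type in grey and mutant in red, 1 point per array, a line at the group mean and a bar of 1 SD where a group has more than 1 array. Every panel spans the same number of log2 units; the low point in the mutant high-fat group is array 2, at 7.01 for Cck and 5.14 for Gcg.

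Gcg encodes proglucagon, from which intestinal L cells cut GLP-1 and GLP-2. On normal diet Gcg was 7.22 and 6.64 in wild type and 6.44, 6.60 and 6.27 in mutants. On high-fat diet Gcg was 6.88 and 7.20 in wild type and 6.44 and 5.14 in mutants. Every mutant array was below every wild-type array on both diets, by as little as 0.04 on normal diet. With butyrate Gcg was 6.62 in wild type and 7.01, 5.52 and 6.87 in mutants, and mutant butyrate array 2 stood apart from the other mutant butyrate arrays.

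Sst encodes somatostatin, the D-cell peptide that inhibits release of most other gut hormones. On normal diet Sst was 9.93 and 9.55 in wild type and 8.96, 9.43 and 9.11 in mutants. On high-fat diet Sst was 9.49 and 9.26 in wild type and 9.24 and 8.13 in mutants. The genotypes did not overlap on either diet, and on high-fat diet mutant array 1 came within 0.02 of the lower wild-type array. With butyrate Sst was 9.20 in wild type and 9.78, 8.97 and 9.32 in mutants, on both sides of the wild-type array.

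Ghrl encodes ghrelin, the appetite-stimulating peptide made mainly in the stomach and also in the duodenum. On normal diet Ghrl was 8.21 and 7.36 in wild type, which enclosed the mutant values of 7.57, 7.73 and 7.51. On high-fat diet Ghrl was 7.83 and 7.73 in wild type and 8.02 and 6.72 in mutants, on either side of wild type. With butyrate Ghrl was 7.36 in wild type and 7.69, 7.33 and 7.57 in mutants. Its lowest array, mutant high-fat array 2, stood 0.61 below the next. The stomach gene Gkn1 was at 8.80 on that same array and at 5.02 on the array where Ghrl was highest, wild-type normal-diet array 1. On the arrays next highest for Ghrl, mutant high-fat array 1 and wild-type high-fat array 1, Gkn1 was at 9.52 and 12.23. The share of stomach RNA in the Ghrl values was not tested.

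Nts encodes neurotensin, a peptide of N cells released in response to fat, and had the widest range of the 10 genes, 2.14 or 4.40-fold. On normal diet Nts was 7.70 and 6.36 in wild type and 6.27, 7.44 and 6.92 in mutants. On high-fat diet Nts was 7.52 and 7.67 in wild type and 7.32 and 6.66 in mutants, with no overlap. With butyrate Nts was 7.29 in wild type and 8.41, 6.64 and 7.57 in mutants. The spread within a group was as large as the differences between groups, with an SD of 0.94 (n = 2) in wild type on normal diet and 0.88 (n = 3) in mutants on butyrate.

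Chga encodes chromogranin A, a granin that most enteroendocrine cells store with their hormones. On normal diet Chga was 8.90 and 7.92 in wild type and 7.78, 8.06 and 7.73 in mutants. On high-fat diet Chga was 8.76 and 8.97 in wild type and 8.28 and 7.16 in mutants, with no overlap. With butyrate Chga was 8.87 in wild type and 8.80, 7.75 and 8.95 in mutants. Mutant butyrate arrays 1 and 3 were within 0.08 of the wild-type array, whereas array 2 was at the level of the mutants on normal diet.

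Chgb encodes chromogranin B, the related granin. On normal diet Chgb was 9.96 and 9.40 in wild type and 9.72, 9.86 and 9.38 in mutants. On high-fat diet Chgb was 9.98 and 10.19 in wild type and 10.17 and 9.09 in mutants. With butyrate Chgb was 10.37 in wild type and 10.23, 9.91 and 10.24 in mutants. All mutant butyrate arrays were above all mutant normal-diet arrays, by as little as 0.06.

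Neurod1 encodes a basic helix-loop-helix factor that drives late steps of enteroendocrine differentiation, among them secretin expression. On normal diet Neurod1 was 6.20 and 6.18 in wild type and 5.98, 6.42 and 6.04 in mutants. On high-fat diet Neurod1 was 5.98 on both wild-type arrays and 5.65 and 5.01 on the mutant arrays, the lowest pair in the study. With butyrate Neurod1 was 7.13 in wild type and 6.94, 6.12 and 6.80 in mutants. Both mutant high-fat arrays lay below every mutant array on either other diet.

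Across the 13 arrays the members varied more than most genes. Their median range was 1.65 against 0.75 for all 12393 genes, and their median SD within groups was 0.42 against 0.16. The range of 9 of the 10 members was above the median of all genes, and Gip was the exception. Differences between groups are read below against this spread.

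Genotype was compared first over all 13 arrays, mutant minus wild type with diet as a term, to ask whether the K-Ras mutation shifts these genes in the duodenum. None of the 10 members passed an adjusted p of 0.05 in limma, where 1.02% of all genes did. At an unadjusted p under 0.05 there were 3 members, Chga, Gcg and Neurod1, where 16.5% of all genes passed. All 10 differences were negative, with a median of -0.22 against 0.01 for all genes. The members vary together, so 10 like signs are not 10 separate observations.

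Chga had the largest difference of genotype over 13 arrays, -0.71 ± 0.25 (SE; 5 wild-type and 8 mutant arrays), or 1.63-fold lower, with a limma adjusted p of 0.169. Gcg differed by -0.66 ± 0.28 (adjusted p = 0.264, limma), Sst by -0.43 ± 0.20 (adjusted p = 0.313, limma) and Neurod1 by -0.37 ± 0.16 (adjusted p = 0.283, limma). Gip differed by -0.05 ± 0.11, with a 95% interval from -0.29 to 0.19. Sct likewise differed by -0.05 ± 0.21, but with the wider interval of -0.49 to 0.40. The other members, Cck, Ghrl, Nts and Chgb, had differences between -0.23 and -0.12.

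Over the 9 arrays on normal and high-fat diet, again none of the members passed limma's adjusted 0.05, where 4.63% of all genes did. The differences were -0.82 ± 0.25 for Chga (adjusted p = 0.103, limma), -0.83 ± 0.26 for Gcg (adjusted p = 0.107, limma) and -0.62 ± 0.20 for Sst (adjusted p = 0.114, limma). These 3 genes were the ones with an unadjusted p under 0.05, where 18.4% of all genes passed. The median member differed by -0.30. Leaving out wild-type normal-diet array 2 brought Chga past the threshold at -1.10 (adjusted p = 0.0241, limma). Leaving out mutant high-fat array 1 brought Sst past it at -0.81 (adjusted p = 0.0345, limma).

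Within a diet no member passed either. On normal diet the median member difference was -0.10, and 0.0242% of all genes passed. No member had an unadjusted p under 0.05 there, where 12.7% of all genes did. These p-values rest on the spread pooled over all groups, that of the mutant high-fat arrays included. Only Gcg and Sst had arrays that did not overlap between genotypes there, both lower in mutants, while 29.1% of all genes did not overlap in one direction or the other. On high-fat diet all 10 differences were negative with a median of -0.53, and 0.0403% of all genes passed. At an unadjusted p under 0.05 there were 3 members, Gcg, Chga and Neurod1, where 11.3% of all genes passed. Gcg was lower by 2.37-fold (-1.25 ± 0.48, adjusted p = 0.368, limma) and Chga by 2.21-fold (-1.14 ± 0.44, adjusted p = 0.363, limma). Here Gcg, Sst, Nts, Chga and Neurod1 did not overlap, 5 of 10 members, against 44.4% of all genes, which is close to the background. On butyrate 5 members were higher and 5 lower, with a median of -0.01, and 0 genes of the array (0%) passed, where 6.04% had an unadjusted p under 0.05 and no member did.

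**Figure D2:**
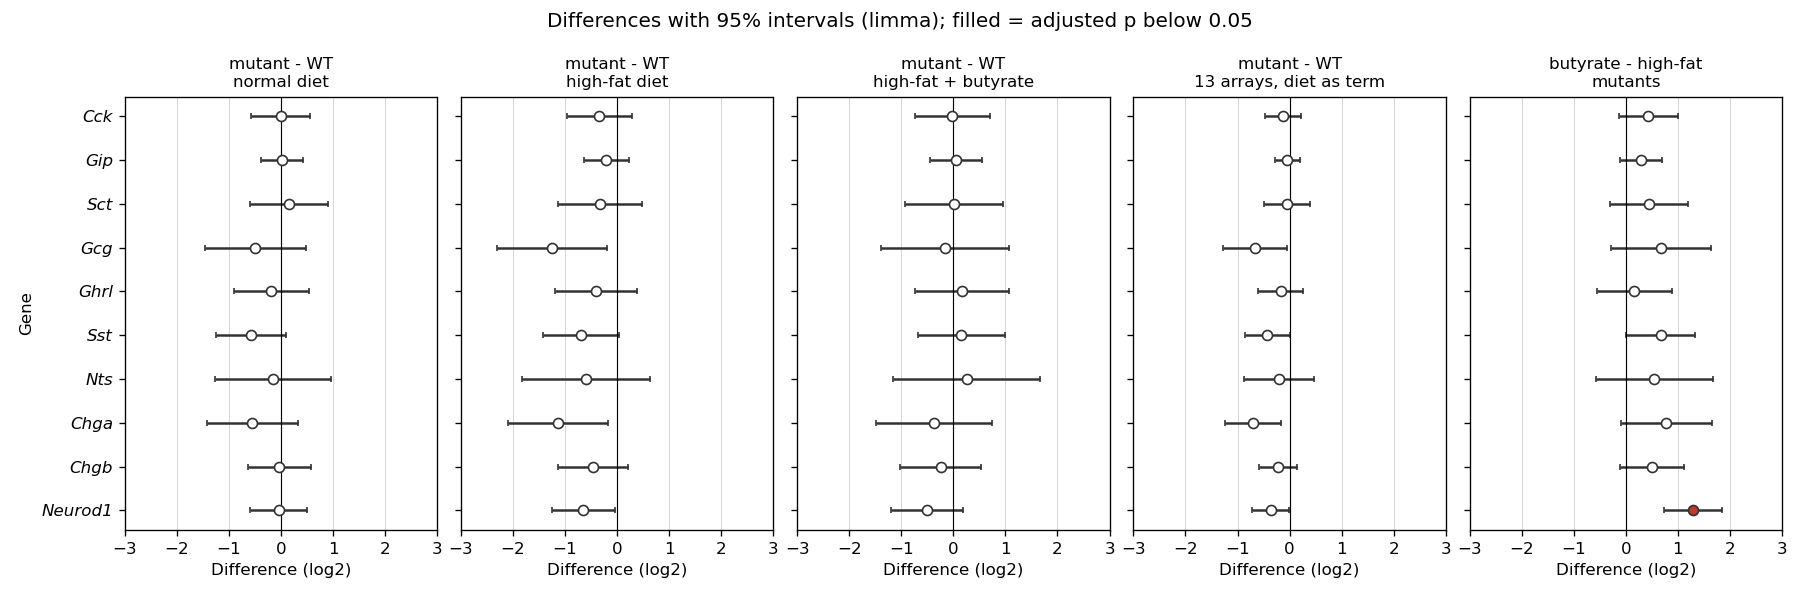
Fitted differences (log2) of the 10 genes in 5 comparisons, those of genotype on each diet, of genotype over 13 arrays and of butyrate minus high-fat diet in mutants, with a panel per comparison, a point for the difference and a bar for its 95% interval; a filled point passed the adjusted threshold. Among these 5, Neurod1 at 1.29 between butyrate and high-fat diet in mutants is the filled point, while Gcg and Chga, at -1.25 and -1.14 on high-fat diet, did not pass.

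Mutant high-fat array 2 set much of the common direction. It was the lowest of the 13 arrays for 8 of the 10 members, whereas 12.8% of all genes had their lowest value there. All 10 members were below their own 13-array mean on it, by 0.90 at the median, while the median of all genes deviated by -0.02. Compared with mutant high-fat array 1, Ghrl was 2.47-fold lower, Gcg 2.46-fold, Sct 2.31-fold and Cck 2.19-fold. Gip was 1.18-fold lower. The mean of 10 epithelial markers was at its highest on that array, 11.62 in a range of 11.29 to 11.62, and none of those markers had its lowest value there. The mean of the 18 acinar genes was at its lowest, 5.47. So was that of the 6 islet genes, 4.11. The mean of the members was 7.38 on this array, and the part of these other tissues in that value was not tested.

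**Figure D3:**
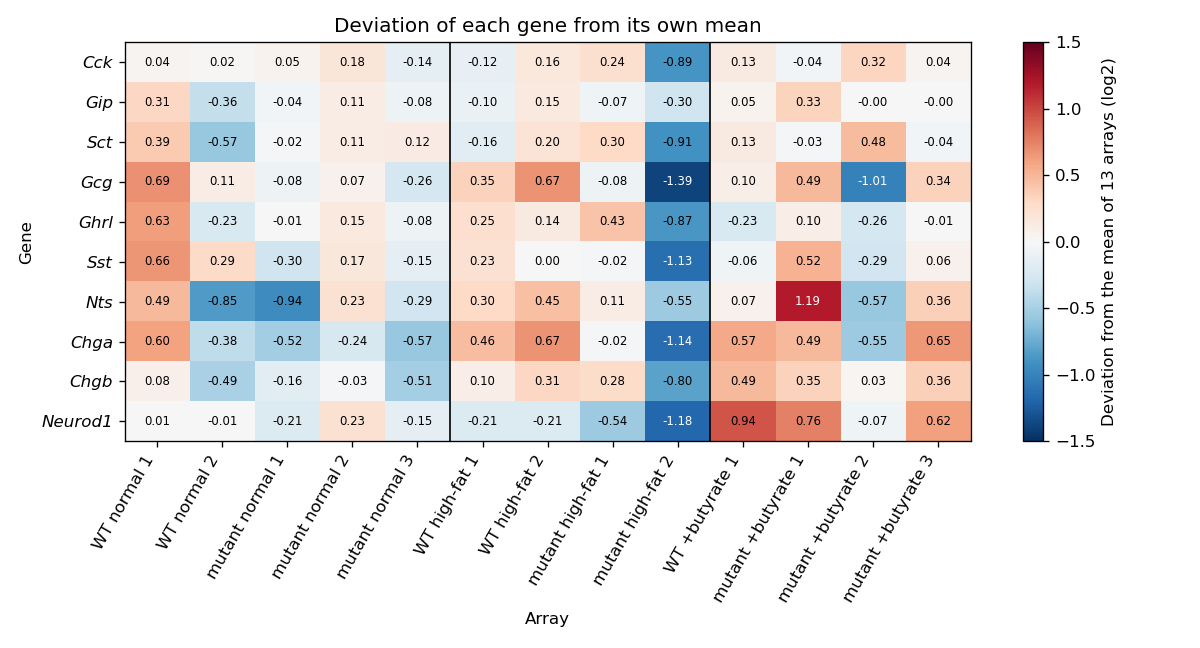
Deviation (log2) of each gene, in rows, from its own mean over the 13 arrays, in columns, with red above and blue below the mean and black lines between diets. The column of mutant high-fat array 2 is blue in all 10 rows, from -0.30 for Gip to -1.39 for Gcg.

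Without mutant high-fat array 2 the genotype difference over the remaining 12 arrays was positive for Cck, Ghrl, Gip and Sct, 4 of the members, and negative for 6, with a median of -0.06. Chga then differed by -0.51 ± 0.22 (adjusted p = 0.32, limma), Gcg by -0.42 ± 0.24 (adjusted p = 0.467, limma) and Sst by -0.25 ± 0.17 (adjusted p = 0.534, limma). On high-fat diet, with 1 mutant array left, the median difference moved from -0.53 to -0.11. For the 9 arrays without butyrate it moved from -0.30 to -0.09. In none of these comparisons did a member pass with or without the array.

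Diets were compared within each genotype. They also compare array series. In wild type, high-fat minus normal diet, no member passed, where 11.0% of all genes passed limma's adjusted 0.05. No member had an unadjusted p under 0.05 there, where 26.9% of all genes did. The differences ran from -0.36 ± 0.33 for Sst to 0.56 ± 0.56 for Nts. Chgb was higher and Sst and Neurod1 were lower without overlap, 3 of 10 members against 50.4% of all genes.

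In mutants, Neurod1 fell on high-fat diet by 0.82 ± 0.25 on the log2 scale, or 1.76-fold, with a limma adjusted p of 0.0443. It was 1 of 10 members called, where 17.7% of all genes were called. The other 9 members did not pass, and Gcg had the next largest difference, -0.64 ± 0.44 (adjusted p = 0.354, limma). Neurod1 was also the only member with an unadjusted p under 0.05, where 31.7% of all genes had one, and the only member whose arrays did not overlap between these groups, against 51.7% of all genes. The median difference was -0.30, with 9 members lower. When mutant high-fat array 2 was left out, 8 members were higher and 2 lower, the median was 0.22, Gcg stood at 0.0060, and Neurod1 differed by -0.50 (adjusted p = 0.329, limma). The call was also lost with the mean of both probe sets (adjusted p = 0.0866, limma) and with the replicate number as a block (adjusted p = 0.0829, limma). Over the 13 fits that each left out 1 array its adjusted p in limma ran from 0.0146 to 0.329. The call held in 4 of them, those without mutant high-fat array 1, mutant butyrate array 1 or 2, or the wild-type butyrate array.

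In mutants, butyrate added to the high-fat diet went with a rise of Neurod1 by 1.29 ± 0.25, or 2.45-fold, with a limma adjusted p of 0.00456. That was again 1 member of 10, where 21.7% of all genes passed. All 10 members were higher, with a median of 0.53, and Chga had the next largest difference, 0.78 ± 0.40 (adjusted p = 0.194, limma). Neurod1 and Sst had an unadjusted p under 0.05, where 34.8% of all genes did. Gip and Neurod1 were higher without overlap, against 48.9% of all genes. This comparison and the previous one share both mutant high-fat arrays, so the lower and the higher values are not independent of each other. Without mutant high-fat array 2 the median was 0.07, 6 members were higher and 4 lower, and Neurod1 stood at 0.97 (adjusted p = 0.055, limma). It passed in the other 12 of 13 such fits. Without mutant high-fat array 1 the called members were 4, with Cck, Chgb and Sst added, and without mutant butyrate array 2 they were 3, with Chga and Gcg added.

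In wild type, where butyrate is 1 array, Neurod1 rose by 1.15 ± 0.33, or 2.21-fold (adjusted p = 0.0422, limma), against 14.7% of all genes called. The call held in 7 of 12 fits without 1 array and was lost without either wild-type high-fat array, mutant normal-diet array 1 or 3, or mutant butyrate array 3. It was also lost with the mean of both probe sets (adjusted p = 0.0551, limma) and in a fit of the compared groups only (adjusted p = 0.147, limma). The other 9 members lay between -0.42 ± 0.44 for Ghrl and 0.29 ± 0.37 for Chgb. Butyrate minus normal diet in mutants does not use the arrays of high-fat diet without butyrate in its differences. They do enter its SE and p-values, through the spread pooled over groups. This comparison gave no called member, where 1.57% of all genes were called. No member had an unadjusted p under 0.05 in it, where 17.1% of all genes did. Neurod1 differed by 0.47 ± 0.22 there (adjusted p = 0.31, limma), and Chgb by 0.48 ± 0.25 (adjusted p = 0.357, limma), the only member without overlap, against 24.4% of all genes. The median over the members was 0.15, with 9 higher.

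Whether the diets acted differently in the genotypes was tested by interaction terms. No member passed in either term, where 0.00807% of all genes passed in each. At an unadjusted p under 0.05 there was again no member, against 5.01% of all genes for high-fat diet and 5.55% for butyrate. For high-fat against normal diet the median member interaction was -0.44, with Gcg at -0.76 ± 0.65 and Neurod1 at -0.61 ± 0.37 (adjusted p = 0.915, limma). For butyrate against high-fat diet the median was 0.46, with Gcg at 1.09 ± 0.74 and Neurod1 at 0.14 ± 0.42 (adjusted p = 0.995, limma), which turned to -0.18 without mutant high-fat array 2. Both medians were 0.04 without mutant high-fat array 2.

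The second Neurod1 probe set gave smaller differences between diets, but not between genotypes in most comparisons. On normal diet it read 6.26 and 6.01 in wild type and 5.95, 5.91 and 5.80 in mutants, and on high-fat diet 5.998 and 6.18 against 5.96 and 5.39. With butyrate it read 6.60 in wild type and 6.24, 5.94 and 5.998 in mutants. Its lowest array was also mutant high-fat array 2 and its highest also the wild-type butyrate array. By this probe set Neurod1 differed by -0.21 ± 0.17 between high-fat and normal diet in mutants (adjusted p = 0.446, limma), and by 0.39 ± 0.17 between butyrate and high-fat diet (adjusted p = 0.136, limma). In wild type the butyrate difference was 0.51 ± 0.23 (adjusted p = 0.179, limma). None of the diet calls of Neurod1 was thus made by both probe sets, while the directions of these differences were the same. Its butyrate interaction had the opposite sign, -0.12 ± 0.29. Its genotype difference over 13 arrays was -0.38 ± 0.11 (adjusted p = 0.0933, limma), near the -0.37 of the first probe set.

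**Figure D4:**
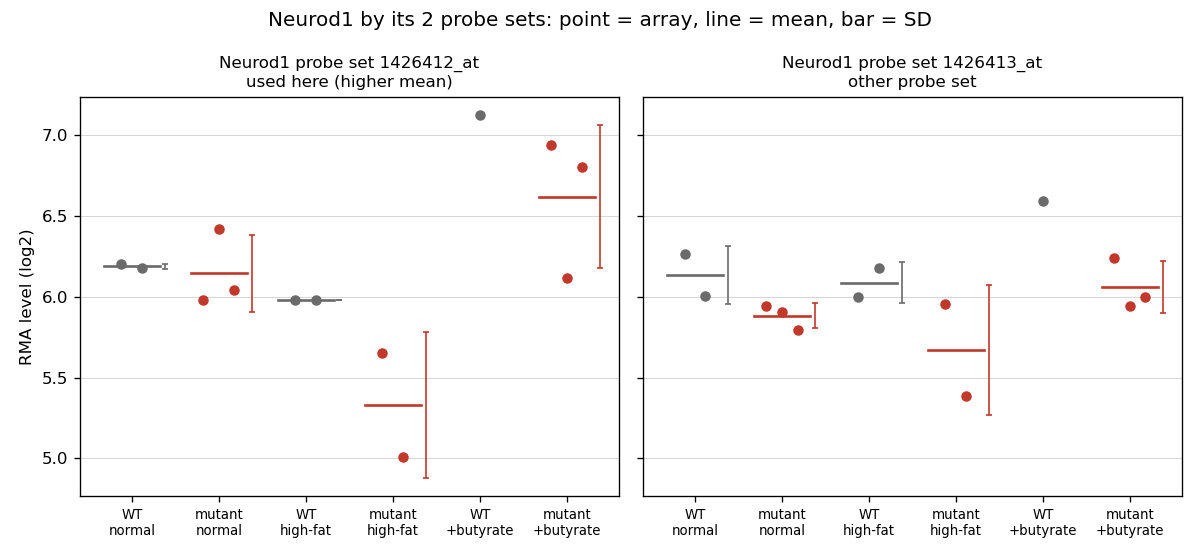
RMA level (log2) of Neurod1 by the probe set used, on the left, and by its other probe set, on the right, in the 6 groups, with points for arrays, lines for group means and bars of 1 SD. Both panels are lowest in the mutant high-fat group, with means that rest on arrays at 5.65 and 5.01 on the left and 5.96 and 5.39 on the right.

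The members moved together across arrays. Pearson's r over the 13 arrays ran from 0.18 to 0.86 for the 45 pairs of members, with a median of 0.61, and all 45 were above 0. The highest were Gcg with Chga and Gcg with Sst, each 0.86, and Chga with Chgb, 0.85. The lowest was Cck with Nts, 0.18. The median over 12 arrays, without mutant high-fat array 2, was 0.42 and 35 of 45 were above 0. Cck with Gcg then stood at -0.41, while Gcg with Chga and Nts with Chga were highest at 0.79. These correlations share the arrays, their normalization and the diet groups, and are given as descriptions.

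The genes with the most similar profiles to each member over the 13 arrays were found by Pearson's r among all genes with a standard name. For Neurod1 these were Rdx (0.95), Mrfap1 (0.94) and F2r (0.94), and for Chga they were Lmo2 (0.94), Slc30a2 (0.92) and Plxdc2 (0.92). Gcg was most like Itln1 (0.93), Sh3bp5 (0.92) and Htra3 (0.92), and Sst was most like Fbp1 (0.92), Cst7 (0.90) and Reg4 (0.89). For Cck they were Arg1 (0.88), Ost4 (0.84) and Tph1 (0.84), the last encoding an enzyme of serotonin synthesis in enterochromaffin cells. Over the 12 arrays without mutant high-fat array 2 the values for Cck were 0.64, 0.28 and 0.45, whereas those for Neurod1 were 0.93, 0.91 and 0.90. Gip was most like Aspdh (0.89), Gstm7 (0.85) and Klhl21 (0.83), and Nts like Plscr2 (0.90), Aspdh (0.90) and Apoc3 (0.86). Sct was most like Emid1 (0.83), Tmem179b (0.82) and Arg1 (0.81), Ghrl like Xcl1 (0.88), Col12a1 (0.84) and Aoah (0.83), and Chgb like Gem (0.89), Antxr1 (0.88) and Twsg1 (0.87).

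Other genes of the enteroendocrine system were followed through 6 lists with 103 measured genes: further hormones, serotonin and amine synthesis, transcription factors, prohormone processing and granules, nutrient sensing, and receptors or enzymes acting on the hormones. Over 13 arrays none of the 103 passed the genotype test in limma, 43 being higher and 60 lower in mutants, where 1.02% of all genes passed. At an unadjusted p under 0.05 there were 15, against 16.5% of all genes, a share like that of the background. Over the 9 arrays without butyrate 7 were called, or 6.80% against 4.63% of all genes, and all 7 were lower. They were the progenitor factor Sox4 (-0.59 ± 0.14), the hormones Nmu (-0.47 ± 0.10) and Agt (-0.54 ± 0.13), the granule priming factor Cadps (-0.40 ± 0.10), and the glucose transporters Slc5a1 (-0.29 ± 0.07) and Slc2a2 (-0.59 ± 0.13). The last was Dpp4 (-0.46 ± 0.10), the peptidase that inactivates GLP-1 and GIP. Slc5a1, Slc2a2 and Dpp4 are also made by absorptive enterocytes. None of these 7 calls held under all alternatives, nor did any list gene's call between high-fat and normal diet, between butyrate and normal diet, or between butyrate and high-fat diet in wild type.

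In mutants, 4 of the 103 genes were lower and 2 higher on high-fat than on normal diet, 5.83% where 17.7% of all genes were called. Lower were Sox4 (-0.76 ± 0.22), the tachykinin precursor Tac1 (-0.63 ± 0.18), carboxypeptidase E, which trims prohormones, encoded by Cpe (-0.67 ± 0.17), and Cadps2 (-0.48 ± 0.15). Higher were Vipr1, a receptor for vasoactive intestinal peptide (1.05 ± 0.20), and Syt13 (0.46 ± 0.13). Of the 6, only Vipr1 passed without mutant high-fat array 2. The probe sets of Sox4 disagreed: by their mean it was higher, by 0.41 (adjusted p = 0.0389, limma). In wild type Nkx2-2 (0.84 ± 0.20) and Hhex (0.62 ± 0.15) were higher and the somatostatin receptor Sstr3 (-0.45 ± 0.11) lower, 2.91% of the 103 against 11.0% of all genes.

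Butyrate minus high-fat diet in mutants called 13 of the 103, 12.6% against 21.7% of all genes, 10 of them higher. Among the transcription factors Mlxipl (1.17 ± 0.22), Isl1 (1.25 ± 0.27) and Sox4 (0.96 ± 0.22) rose. Isl1, which acts in several hormone lineages, was 4.89 and 4.30 on the mutant high-fat arrays and 6.20, 5.25 and 6.08 on the mutant butyrate arrays, with array 2 the lowest of the latter, as for Neurod1. The calcium channel gene Cacna1d rose by 1.49 ± 0.24, from 4.18 and 4.13 to 5.83, 5.12 and 5.96. Also higher were the hormones Tac1 (0.91 ± 0.18) and Nmu (0.66 ± 0.21), as well as Cadps (0.88 ± 0.20), Cpe (0.62 ± 0.17), Slc2a2 (0.73 ± 0.23) and Ide (0.44 ± 0.12). Vipr1 (-1.25 ± 0.20), Rab3a (-0.54 ± 0.13) and Syt13 (-0.53 ± 0.13) fell. By the mean of their probe sets Sox4 was instead lower, by -0.66 (adjusted p = 0.00365, limma), and Ide stood at -0.25 (adjusted p = 0.126, limma). Of the 13, only Cacna1d, Mlxipl and Vipr1 passed without mutant high-fat array 2, and these 3 passed under every alternative that gave them a value. Cacna1d (3.95 to 5.96 over the 13 arrays), Vipr1 (3.59 to 5.27) and Syt13 (2.86 to 3.84) are dim. Their mean levels lay below the 30th percentile of all genes, 5.09, so a filter at that level gave them no value.

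In wild type, with 1 butyrate array, 9 of the 103 were called, 8.74% against 14.7% of all genes. Mlxipl (1.08 ± 0.29), Cacna1d (1.52 ± 0.33), Cpe (0.87 ± 0.23) and Ide (0.66 ± 0.16) were higher, and Nkx2-2 (-0.92 ± 0.24), Hhex (-0.60 ± 0.18), Syt13 (-0.78 ± 0.18), Rab3a (-0.74 ± 0.18) and Pcsk1n (-0.73 ± 0.22) were lower. Between butyrate and normal diet in mutants Cacna1d (1.19 ± 0.22) and Nkx2-2 (0.74 ± 0.16) were called, 1.94% against 1.57%. No gene of these lists was called by limma for genotype within a diet or in an interaction. At an unadjusted p under 0.05 there were 4 on normal diet, 9 on high-fat diet, 3 on butyrate, and 7 and 3 for the high-fat and butyrate interactions, against 12.7%, 11.3%, 6.04%, 5.01% and 5.55% of all genes. On mutant high-fat array 2, 19 of the 103 had their lowest value, 18.4% against 12.8% of all genes and 8 of 10 members. The list means of further hormones (5.73), serotonin and amine synthesis (8.14), transcription factors (5.51) and processing and granule genes (5.61) were lowest on that array too. Their median deviations there were small, -0.2, -0.05, -0.12 and -0.07 in that order, against -0.9 for the members. Only 1 of the 5 amine genes had its lowest value there. The further hormones include Iapp and Ppy, which are also in the islet list.

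**Figure D5:**
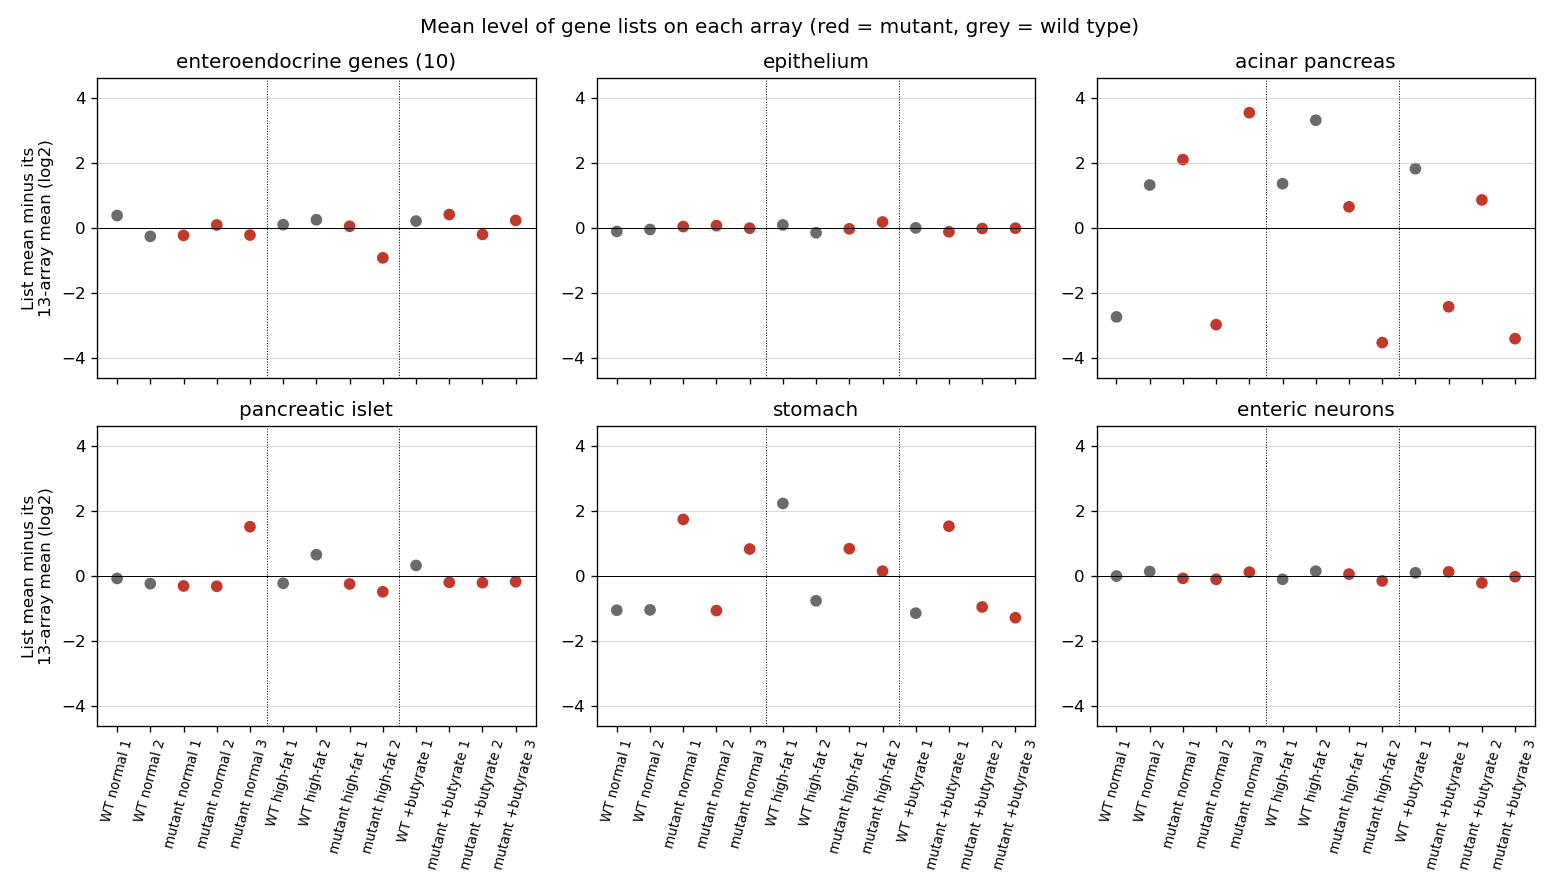
Mean of the 10 members and of 5 marker lists on each of the 13 arrays, as the deviation (log2) from the list's own 13-array mean, with 1 point per array, wild type in grey and mutant in red. The members are lowest on mutant high-fat array 2, 0.91 below their mean, where the acinar and islet means are lowest as well, and the acinar, stomach and islet lists also vary among the other arrays.

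Several members are also made outside the gut epithelium, in pancreatic islets, stomach or enteric neurons. The islet hormone gene Ins2 was at 10.92 on mutant normal-diet array 3, 9.93 on wild-type high-fat array 2 and 7.50 on the wild-type butyrate array, and at 5.63 to 5.99 on the rest. On these 3 arrays Gcg, which islets express too, was 6.27, 7.20 and 6.62, and Sst was 9.11, 9.26 and 9.20. The highest values of the 13 arrays were 7.22 for Gcg and 9.93 for Sst, both on wild-type normal-diet array 1. The Gcg value of wild-type high-fat array 2 was thus close to the highest. The mean of 6 islet genes ran from 4.11 to 6.11 over all arrays, that of 14 enteric neuron genes from 5.02 to 5.38 and that of 10 stomach genes from 5.07 to 8.58. The parietal cell genes Atp4a and Atp4b were at 3.81 to 4.86 and 5.07 to 5.63. The part of such tissue in the members' values was not tested. With the acinar mean as a covariate no genotype comparison called a member, but none did without it either. That fit therefore cannot show the part of acinar tissue, and it does not cover islet, stomach or neuron RNA.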

How the data were processed

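Total RNA was hybridised to 13 Affymetrix arrays. The deposited values are on a log2 scale and came from the RMA routine of Affymetrix Expression Console 1.1, per the submitters' processing notes, and they ranged from 1.76 to 14.2. The sources used here do not give the genome build. The platform annotation pairs 20380 of 22690 probe sets with a single symbol, 691 with several and 1555 with none, and 64 are controls. All 12393 genes were fitted with limma 3.58.1 in R 4.3.3 (lmFit, contrasts, and eBayes with a trend in intensity). Tests were two-sided, and the Benjamini-Hochberg method was applied over all genes with a threshold of 0.05, so every adjusted p comes from limma. All 13 arrays entered 6 group means, except that genotype was also fitted with diet as a term over 13 and over 9 arrays. There were 12 comparisons.

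The members and lists were chosen with earlier results of these data known. All 10 members are named. Of each further list, up to 4 genes with the smallest p in a comparison, and any gene past the threshold, could be named, and for likeness the 3 genes with the highest Pearson r were named for each member. The fit was tested on simulated data. The number of arrays limits the precision, and the design text calls the samples mice, so p-values reflect only how far these samples spread, which may be technical. At most 408 probe sets had equal values in a pair of arrays, and every array was counted as its own sample. Levels are not compared between genes. Symbols were matched to RefSeq (GRCm38.p6) for locations and promoters. Alternatives were quantile normalization, a filter at the 30th percentile of level (5.09, which kept all 10 members), averaged probe sets, no trend in eBayes, array weights, the compared groups alone, a replicate block, the acinar mean as a covariate, equal weights for diets and each array left out. Neurod1 by its other probe set was added after the data were seen.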

Additional observations from a re-analysis of the deposited data

How the results depend on the processing

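The number of called members stayed at 0 in all comparisons of genotype within a diet, of genotype over 13 arrays, of high-fat and normal diet in wild type, of butyrate and normal diet in mutants and of both interactions under every alternative run. Over the 9 arrays without butyrate it ran from 0 to 1 with each array left out. High-fat minus normal diet in mutants called 1 member, Neurod1, but 0 with the mean of probe sets, 0 with the other probe set and 0 to 2 with each array left out. Butyrate minus high-fat diet called 1 in wild type, but 0 with the mean of probe sets, 0 with the compared groups only, 0 with the other probe set and 0 to 1 with each array left out. In mutants it called 1, but 0 with the other probe set and 0 to 4 with each array left out. Genotype over 13 arrays turned its sign for 4 members far from the threshold: Gip stood at 0.0026 and Sct at 0.045 with array weights, and Sct at 0.026 with the acinar covariate. With each array left out Gip ran from -0.16 to 0.042, Sct from -0.23 to 0.14, Cck from -0.24 to 0.049 and Ghrl from -0.31 to 0.027. Likewise high-fat minus normal diet ran from -0.11 to 1.23 for Nts in wild type and from -1.29 to 0.0060 for Gcg in mutants, and the butyrate interaction of Neurod1 from -0.18 to 0.46. With the mean of probe sets Sox4 turned to 0.41 for high-fat minus normal diet and to -0.66 for butyrate minus high-fat diet in mutants, and Ide to -0.25 in the latter. Of the further lists, 3 of 13 called genes passed every alternative that gave them a value for butyrate minus high-fat diet in mutants. In the other comparisons 0 did. Among these 3 genes, Cacna1d and Vipr1 got no value from the filter on level. The causes were not tested. The number of all genes called moved more than that of the members: for genotype over 13 arrays it was 127, from 2 to 329 with an array left out and from 5 to 253 under the other alternatives.

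With the replicate number as a block, high-fat minus normal diet in mutants called 0 members. Same-numbered arrays of the genotypes deviated from their group means with r of -0.243 and -0.326 for normal diet and 0.012 for the high-fat arrays. On both of these diets the wild-type arrays deviate as mirror images, so swapping their numbers only turns the sign of r. These values therefore cannot show whether the numbers pair samples. The numbers were not taken to do so in the main fits, and pairing remains undecided. The wild-type butyrate array has no number and was left out of all fits with the block. Comparisons that need that array could not be estimated with the block. Genotype with diet as a term was then fitted on the numbered arrays only, not on all 13. Leaving the wild-type butyrate array out likewise gives no value for the comparisons that need it. With 1 to 3 arrays per group, differences of the size seen within groups cannot be resolved.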
